A study of Mus musculus with 19 samples.

Results

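The 6 genes described here encode transcription factors that T cells switch on within minutes of a signal through the antigen receptor: the orphan nuclear receptors Nr4a1, Nr4a2 and Nr4a3 and the zinc-finger factors Egr1, Egr2 and Egr3. They were taken by name from the expression tables, where all 6 of 6 were found among 25639 genes. Their level was read in 19 bulk RNA sequencing libraries of mouse tumour-infiltrating T cells. Venus-AKTPM/LOH colorectal cancer cells had been injected into the spleen, and at day 30 the liver tumours were taken and their CD8 and CD4 T cells isolated by flow cytometry (CD45, CD3ε and the coreceptors). All mice carried floxed Tet2, which encodes an enzyme that oxidises methylated cytosine. Control mice (Tet2fl/fl) were labelled with no Cre, Vav1CreTet2KO mice had a Cre active across blood cells, and Cd4CreTet2KO mice had a Cre active in T cells. The CD8 groups held 3 Tet2fl/fl, 3 Vav1CreTet2KO and 4 Cd4CreTet2KO libraries, and each CD4 group held 3. The labels call replicates biological, and they give no age, sex or strain. By the known activity of these drivers, both knockouts target CD4 and CD8 T cells, and Vav1CreTet2KO also targets the other blood cells of the same mouse.

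Immediate early genes need no new protein to be transcribed. Calcium and calcineurin activate NFAT, and RAS and ERK activate ternary complex factors that sit with SRF on CArG boxes, the main route to the EGR genes. NR4A promoters are known for cAMP response elements bound by CREB. NR4A factors have no classical ligand, so that their amount sets their activity. In T cells under continued antigen exposure they are known for a part in exhaustion and tolerance, as are Egr2 and Egr3, which restrain activation, while Egr1 is most often used as a mark of recent signalling.

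Upstream sequence is shown for the 3 NR4A genes and for Egr2, the member below every control in all knockout libraries. It was taken from RefSeq on GRCm38.p6, where these 4 genes were matched, with 8 start sites. Capitals mark TGACG, the core of the cAMP response element, on either strand, and in Egr2 also the CArG box. The Nr4a1 and Nr4a2 stretches are the 250 bases before the start. That of Nr4a3 is cut to its first 98 bases, which lie before an annotated exon, and that of Egr2 is 30 bases from the CArG box on. They are Nr4a1 chr15:101266596-101266845 (plus strand), Nr4a2 chr2:57124004-57124253 (minus strand), Nr4a3 chr4:48045055-48045152 (plus strand) and Egr2 chr10:67537797-67537826 (plus strand).
Nr4a1: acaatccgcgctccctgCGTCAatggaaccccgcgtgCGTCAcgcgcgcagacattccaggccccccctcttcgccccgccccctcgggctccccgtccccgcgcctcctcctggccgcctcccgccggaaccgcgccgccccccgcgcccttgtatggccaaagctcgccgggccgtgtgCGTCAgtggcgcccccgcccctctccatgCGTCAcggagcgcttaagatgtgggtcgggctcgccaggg
Nr4a2: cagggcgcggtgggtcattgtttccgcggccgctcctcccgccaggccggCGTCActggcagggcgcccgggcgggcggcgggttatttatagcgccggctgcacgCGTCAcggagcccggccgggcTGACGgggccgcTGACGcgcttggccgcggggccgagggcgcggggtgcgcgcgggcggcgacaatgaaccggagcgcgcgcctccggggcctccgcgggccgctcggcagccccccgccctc
Nr4a3: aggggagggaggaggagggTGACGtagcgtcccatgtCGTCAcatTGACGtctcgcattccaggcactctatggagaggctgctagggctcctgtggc
Egr2: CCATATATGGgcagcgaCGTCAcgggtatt

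The 250 bases before the start held 4 matches to TGACG in each of Nr4a1, Nr4a2 and Nr4a3, the last of the Nr4a3 matches lying past the printed stretch, and it matched in 3 of 5 Egr2 windows. One or more such matches occurred in 17.8% of all 32851 windows of that length in the table. A CArG box occurred in 1.47% of windows, in 4 of the 5 Egr2 windows (some of which overlap) and in no NR4A window. The EGR site GCGNGGGCG occurred in 4.7% of windows, in those of Nr4a1 and Nr4a2 among the 4 genes searched. The NFAT core GGAAA, found in 55.6% of windows, occurred in Nr4a2 and in 4 Egr2 windows. The NR4A monomer site AAAGGTCA (NBRE), found in 1.34%, occurred in no window of these 4 genes. Egr1 and Egr3 were not searched. These matches describe letters, on both strands, and not binding.

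Depth, the targeted gene and cell identity bear on every value below. CD4 libraries held 707866 to 17575534 reads on genes. The CD8 total was 8189300 to 20327809 per library, recovered from deposited RPKM (read number divided by gene length and library size). The shallowest was CD4 Vav1CreTet2KO replicate 1, which held the fewest reads on each of the 6 genes, from 1246 on Nr4a3 down to 2 on Egr2, whereas no other library held under 150 reads on any member. Tet2 stayed detectable in all groups, at 6.57 to 8.06 RPKM in CD8 control, 2.93 to 6.28 in CD8 Vav1CreTet2KO and 3.01 to 7.57 in CD8 Cd4CreTet2KO libraries, and its difference passed no test (adjusted p from 0.404 to 0.9998 against control, by limma in CD8 and edgeR in CD4). In CD4 cells its groups spanned 3.87 to 7.02, 2.77 to 5.65 and 4.53 to 7.28 RPKM in the same order. Cd8a stood at 99.9 RPKM or more in CD8 libraries and at 0.79 or less in CD4 libraries. The 11 dendritic cell markers summed to 1026 to 2754 RPKM in CD8 Vav1CreTet2KO and 346 to 2990 in CD8 Cd4CreTet2KO libraries against 62.0 to 411 in CD8 controls, and to 465 to 858 in CD4 Vav1CreTet2KO against 90.9 to 236 in CD4 controls. In CD8 Vav1CreTet2KO 5 of the 11 were called higher, and 8 stood higher in every library than in every control. The 12 macrophage and monocyte markers summed to 280.1 and 145 RPKM in CD8 Cd4CreTet2KO replicates 1 and 2 and to at most 47.9 in the other CD8 libraries. The 4 neutrophil markers summed to 85.5 and 48.8 RPKM in the same 2 libraries and to at most 3.25 in the other CD8 libraries. The 3 CD4 T cell markers summed to 11.2 to 15.3 RPKM in CD8 Vav1CreTet2KO against 4.17 to 4.93 in CD8 controls, but did not move together. Cd40lg stood at 12.5, 10.9 and 7.82 RPKM against at most 1.35, and Cd4 at 0.0955, 1.59 and 0.674 against 0 in every control. Zbtb7b went the other way, at 1.07, 2.77 and 2.66 RPKM against 2.82 to 4.93. Foxp3, which marks regulatory T cells, stood at 6.15, 53.6 and 20.005 RPKM in CD4 Vav1CreTet2KO against 51.7 to 77.4 in CD4 controls. The 4 regulatory T cell markers, Foxp3 among them, summed to 97.7 to 453 RPKM in CD4 Vav1CreTet2KO, to either side of the 196 to 340 in CD4 controls. The part of these cells in the members' levels was not tested.

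As the tables give them, Nr4a1 (ENSMUSG00000023034) lies on chromosome 15 from 101152150 to 101172676, Nr4a2 (ENSMUSG00000026826) on chromosome 2 from 56996842 to 57014015 and Nr4a3 (ENSMUSG00000028341) on chromosome 4 from 48045153 to 48086447. Egr1 (ENSMUSG00000038418) lies on chromosome 18 from 34992876 to 34998037, Egr2 (ENSMUSG00000037868) on chromosome 10 from 67371305 to 67378018 and Egr3 (ENSMUSG00000033730) on chromosome 14 from 70314652 to 70320063. The submitters' processing notes name GRCm38 and mm10, but the RefSeq starts of Nr4a1, Nr4a2 and Egr2 on GRCm38.p6 lie elsewhere, so the build of the tables' coordinates is not settled here.

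Nr4a1 was the most abundant of the 6 genes in every group on the RPKM scale, which corrects for gene length. In CD4 controls its level was 194.5 ± 22.6 RPKM (SD, n = 3) and in CD8 controls 91.7 ± 9.88 (n = 3). Egr2 and Egr3 were the lowest in every group, with means between 1.75 and 13.2 RPKM. Nr4a2 was second in CD8 controls, at 75.6 ± 6.83 RPKM (n = 3), and in CD4 controls lay below Egr1 and Nr4a3, at 15.5 ± 5.48 (n = 3). In each of the other 4 groups Nr4a3 was second. Because levels in CD8 and CD4 cells come from separate tables, they are set side by side without a test. Of 8 library numbers that label both a CD8 and a CD4 library, Nr4a2, Egr2 and Egr3 were higher in the CD8 library in 7, Nr4a3 in 6, Egr1 in 4 and Nr4a1 in 2. The ratio of CD8 to CD4 level spanned 0.987 to 8.73 for Nr4a2 and 0.464 to 1.69 for Nr4a1.

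**Figure D1:**
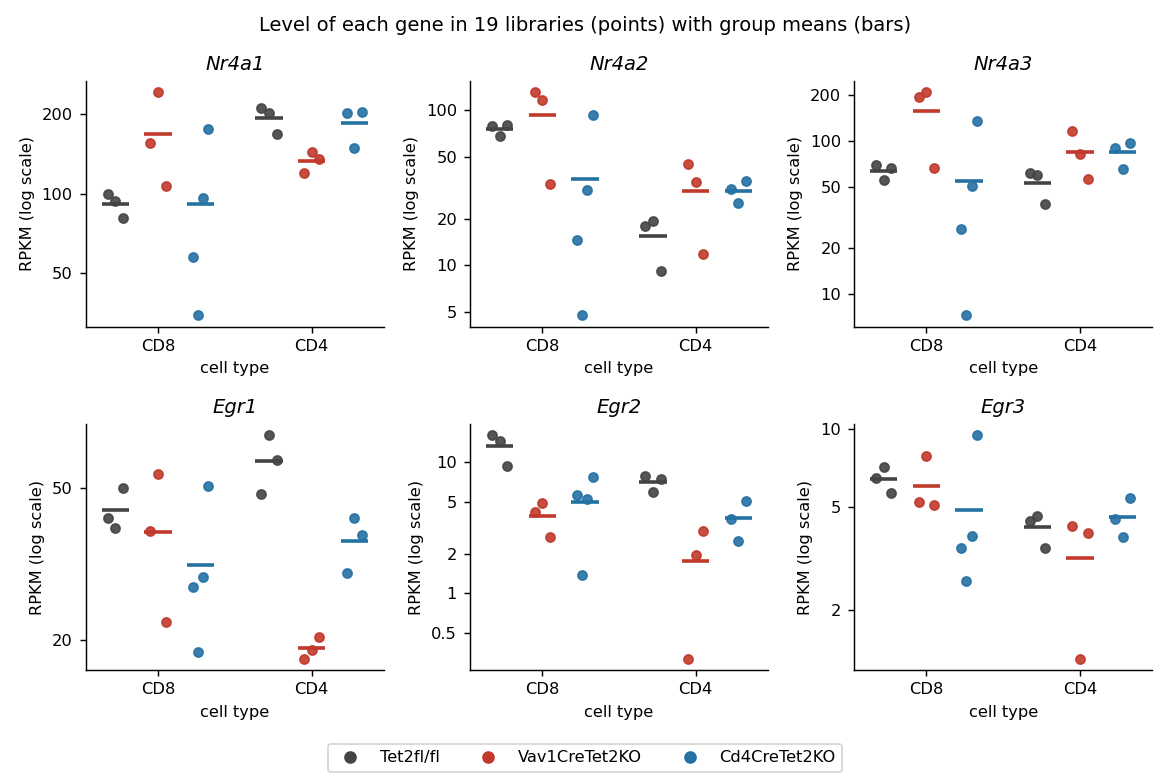
Level of each gene (RPKM, logarithmic axis) in the 19 libraries, 1 point per library, by cell type and genotype, with arithmetic group means as bars. The CD4 Vav1CreTet2KO libraries lie between 17.9 and 20.4 RPKM of Egr1, below every other CD4 library, and every knockout library lies below the controls of its cell type for Egr2.

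No member passed the test in any of the 6 comparisons between genotypes or the 2 comparisons of a knockout effect between cell types, although all 6 were tested in each. The test was limma on log2(RPKM + 1) in CD8 cells and across cell types and edgeR's quasi-likelihood test on counts in CD4 cells, called at a Benjamini-Hochberg adjusted p under 0.05 over all genes. The share of all genes called was 1.46 percent for CD8 Vav1CreTet2KO against control (149 of 10224) and 0.567 percent for CD8 Cd4CreTet2KO against control (58 genes). It was 0.00738 percent for CD4 Vav1CreTet2KO against control (1 of 13554) and 0.0295 percent for CD4 Cd4CreTet2KO against control (4 genes). Between the knockouts it was 0 percent in CD8 cells, where 649 genes had an unadjusted p under 0.05 and DESeq2 called 95, and 0.0664 percent in CD4 cells. At an unadjusted p under 0.05 stood 1 member in CD8 Vav1CreTet2KO and 2 in CD8 Cd4CreTet2KO, where 17.3% and 12.4% of all genes did. In CD4 cells 4 members did in Vav1CreTet2KO and 3 in Cd4CreTet2KO, against 11.9% and 2.50% of all genes. In bulk libraries, fewer cells of a type and less RNA per cell cannot be told apart.

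**Figure D2:**
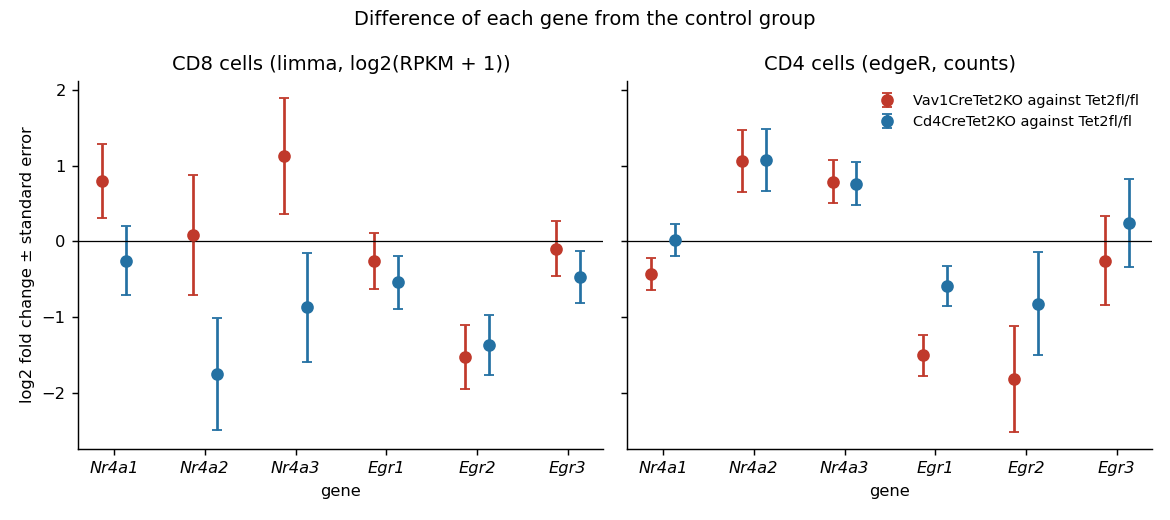
Log2 fold change against Tet2fl/fl with its standard error for each gene, in CD8 cells (left, limma on log2(RPKM + 1)) and CD4 cells (right, edgeR on counts), for Vav1CreTet2KO and Cd4CreTet2KO. Egr2 lies below 0 in all 4 comparisons, and Nr4a2 and Nr4a3 lie above 0 for both knockouts in CD4 cells, none past the threshold of 0.05.

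The NR4A genes are described first, as the receptors of the pair of families. Nr4a1, the family member used in reporter mice to read antigen receptor signalling, measured 100.2, 94.1 and 80.8 RPKM in CD8 controls. It measured 156, 243 and 107 RPKM in CD8 Vav1CreTet2KO and 57.6, 34.6, 96.1 and 177 RPKM in CD8 Cd4CreTet2KO. Every Vav1CreTet2KO library thus stood above every control, as for 6.92 percent of all genes, while the Cd4CreTet2KO libraries spread to either side. Vav1CreTet2KO differed from control by a log2 fold change of 0.80 (SE 0.49, adjusted p = 0.419 by limma). For Cd4CreTet2KO the value was -0.25 (SE 0.46, adjusted p = 0.879 by limma). Among CD4 libraries the order was the reverse for Vav1CreTet2KO. Controls measured 212, 203 and 169 RPKM of Nr4a1, Vav1CreTet2KO libraries 119.6, 144 and 135, and Cd4CreTet2KO libraries 202, 149.5 and 204. Every CD4 Vav1CreTet2KO library lay below every control, as for 12.5 percent of all genes, with a log2 fold change of -0.43 (SE 0.21, edgeR adjusted p = 0.449). For CD4 Cd4CreTet2KO, whose libraries overlapped the controls, it was 0.02 (SE 0.21, edgeR adjusted p = 0.9998).

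Nr4a2, a relative best known from dopaminergic neurons and also induced in T cells, measured 78.7, 67.8 and 80.4 RPKM in CD8 controls. It measured 131, 116 and 33.3 RPKM in CD8 Vav1CreTet2KO, 2 libraries above and 1 below the controls, with a difference of 0.08 on the log2 scale (SE 0.79, adjusted p = 0.969 by limma). In CD8 Cd4CreTet2KO it measured 14.6, 4.75, 30.6 and 93.2 RPKM, a 19.6-fold range between libraries of 1 group. The log2 fold change there was -1.75 (SE 0.74, limma adjusted p = 0.356). In CD4 cells controls measured 17.9, 19.4 and 9.21 RPKM, Vav1CreTet2KO libraries 44.7, 34.2 and 11.8, and Cd4CreTet2KO libraries 31.0, 25.1 and 34.9. All Cd4CreTet2KO libraries lay above all CD4 controls, as for 5.83 percent of all genes, whereas 1 Vav1CreTet2KO library lay within their range. The log2 fold changes were 1.06 (SE 0.41, edgeR adjusted p = 0.346) for Vav1CreTet2KO and 1.08 (SE 0.41, edgeR adjusted p = 0.9998) for Cd4CreTet2KO.

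Nr4a3, which overlaps in function with Nr4a1 in T cells, measured 69.6, 55.9 and 67.3 RPKM in CD8 controls and 197, 210.2 and 67.4 RPKM in CD8 Vav1CreTet2KO. The third Vav1CreTet2KO library stood within the control range and the others above it, with a difference of 1.13 on the log2 scale (SE 0.77, adjusted p = 0.467 by limma). In CD8 Cd4CreTet2KO it measured 26.5, 7.24, 51.3 and 136 RPKM, on either side of the controls, with a difference of -0.86 on the log2 scale (SE 0.72, adjusted p = 0.688 by limma). CD4 controls measured 61.7, 59.8 and 39.2 RPKM, Vav1CreTet2KO libraries 116, 82.5 and 56.6, and Cd4CreTet2KO libraries 90.8, 65.9 and 98.1. Again all CD4 Cd4CreTet2KO libraries, as for 5.83 percent of all genes, and 2 of 3 CD4 Vav1CreTet2KO libraries exceeded the controls. These overlaps hold for the deposited RPKM. After rescaling with TMM factors (edgeR's library scaling), every Vav1CreTet2KO library exceeded every control in both cell types. The lowest stood at 81.0 against at most 60.6 in CD8 cells and at 61.8 against at most 56.9 in CD4 cells. The log2 fold change was 0.79 in Vav1CreTet2KO (SE 0.28, adjusted p = 0.313 by edgeR) and 0.76 in Cd4CreTet2KO (SE 0.28, adjusted p = 0.9998 by edgeR). Without CD4 Vav1CreTet2KO replicate 3 the whole comparison moved, from 1 of 13554 genes called to 819 of 14409 (5.68%). There Nr4a2 stood at 1.42 (edgeR adjusted p = 0.0267, range over all alternatives 0.0267 to 0.756) and Nr4a3 at 0.97 (edgeR adjusted p = 0.0496, range 0.0496 to 0.688).

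In the CD8 Cd4CreTet2KO group the lowest and the highest library were shared by both families. Replicate 2 was the lowest and replicate 4 the highest library for each of the 6 members. The highest library exceeded the lowest 5.10-fold for Nr4a1, 19.6-fold for Nr4a2 and 18.7-fold for Nr4a3, against 2.71-fold for Egr1, 5.50-fold for Egr2 and 3.65-fold for Egr3. Replicates 1 and 2, which held the macrophage transcripts, were below every control for all 3 NR4A genes. Replicate 3, with macrophage markers at 5.93 RPKM in sum, was also below every control for Nr4a2 and Nr4a3. Without these 2 libraries the log2 fold change against control was 0.51 for Nr4a1 and 0.38 for Nr4a3, the opposite sign, while Nr4a2 stayed below 0 at -0.49, and no gene was called in that comparison. In CD8 Vav1CreTet2KO replicate 3 was the lowest for each of Nr4a1, Nr4a2, Nr4a3, Egr1, Egr2 and Egr3. Over the 10 CD8 libraries the Pearson correlation of log2(RPKM + 1) was 0.965 between Nr4a1 and Nr4a3, 0.942 between Nr4a2 and Nr4a3 and 0.869 between Nr4a1 and Nr4a2. It was as high across the families for Egr1 and Nr4a2 (0.879) and Egr3 and Nr4a2 (0.861), followed by Egr3 and Nr4a1 (0.820) and Egr1 and Nr4a3 (0.774), and lowest for Egr2 and Nr4a1 (0.271). Over the 9 CD4 libraries it was 0.955 between Nr4a2 and Nr4a3, -0.165 between Nr4a1 and Nr4a3 and -0.133 between Nr4a1 and Nr4a2. These coefficients describe libraries that share groups and scaling and carry no test.

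Egr1, the first EGR gene to appear after receptor signalling, had the smallest p of the 6 genes. CD4 controls measured 48.2, 68.4 and 59.1 RPKM, CD4 Vav1CreTet2KO libraries 17.9, 18.8 and 20.4, and CD4 Cd4CreTet2KO libraries 29.9, 41.6 and 37.5. The 3 genotypes did not overlap: each Vav1CreTet2KO library lay below each Cd4CreTet2KO library, and each of those below each control. Libraries lower than all controls occurred for 12.5 percent of genes in Vav1CreTet2KO and 7.93 percent in Cd4CreTet2KO, and 15.3 percent of genes were lower in all Vav1CreTet2KO than in all Cd4CreTet2KO libraries. The log2 fold change of Vav1CreTet2KO against control was -1.50 (SE 0.27, edgeR adjusted p = 0.110), and its p was the sixth smallest of 13554 genes. In the authors' deposited table Egr1 stood at a log2 fold change of -1.50 with a false discovery rate of 0.00410 in this comparison. Over 13 alternative settings the log2 fold change lay between -1.65 and -1.39 and the adjusted p between 0.000443 and 0.406. It passed in 3 of them, namely with no filter on counts (0.000551), with DESeq2 (0.000443) and without CD4 Vav1CreTet2KO replicate 3 (edgeR, 0.00914). In the same order, these settings called 383 of 20159, 581 of 20159 and 819 of 14409 genes, against 1 of 13554 in the main fit. Leaving out replicate 3 keeps replicates 1 and 2, of which replicate 1 was the shallowest library. For CD4 Cd4CreTet2KO the log2 fold change was -0.58 (SE 0.27, edgeR adjusted p = 0.9998), and between the knockouts -0.92 (SE 0.27, edgeR adjusted p = 0.211). With CD4 Vav1CreTet2KO replicate 3 left out, the difference between the knockouts was -1.04 (edgeR adjusted p = 0.0464, range over alternatives 0.0464 to 0.8293), and 4.99% of all genes were called.

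In CD8 cells Egr1 overlapped in every comparison. Controls measured 41.7, 39.2 and 49.9 RPKM, Vav1CreTet2KO libraries 38.5, 54.3 and 22.2, and Cd4CreTet2KO libraries 27.5, 18.6, 29.2 and 50.4. The log2 fold changes were -0.26 (SE 0.37, limma adjusted p = 0.738) and -0.54 (SE 0.34, limma adjusted p = 0.585).

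Egr2, a brake on T cell activation that is also known from anergic and exhausted cells, was the only member below all controls in all 4 comparisons of a knockout with control. Of 10117 genes tested in all 4, 55 (0.544%) lay so, Egr2 among them. The comparisons within a cell type share their controls, so the 4 are not independent. CD8 controls measured 15.9, 14.4 and 9.25 RPKM. CD8 Vav1CreTet2KO libraries measured 4.17, 4.86 and 2.70, and CD8 Cd4CreTet2KO libraries 5.65, 1.39, 5.21 and 7.62. Every knockout library stood lower than every control, as for 12.9 percent of all genes in Vav1CreTet2KO and 14.0 percent in Cd4CreTet2KO. After rescaling with TMM factors the highest CD8 Cd4CreTet2KO library, at 8.18, lay just below the lowest CD8 control, at 8.32. Vav1CreTet2KO stood at a log2 fold change of -1.53 (SE 0.43, adjusted p = 0.0980 by limma). Cd4CreTet2KO stood at -1.36 (SE 0.40, adjusted p = 0.150 by limma), and the difference was -0.16 (SE 0.40, limma adjusted p = 0.913) between the knockouts. The authors' deposited table gives Egr2 a log2 fold change of -1.71 and a false discovery rate of 0.0203 for CD8 Vav1CreTet2KO, and -1.22 and 0.189 for CD8 Cd4CreTet2KO. Over 14 alternatives the Vav1CreTet2KO difference lay between -1.75 and -1.34 with an adjusted p from 0.0152 to 0.338. It passed with DESeq2 on recovered reads (0.0152) and, with limma, without the 2 Cd4CreTet2KO libraries that held macrophage transcripts (0.0380). Those libraries belong to neither group compared, and leaving them out changed both the shared estimate of spread and the number of genes tested, from 10224 to 9817. DESeq2 called 931 of 17981 genes in this comparison and limma without those libraries 174, against 149 in the main fit.

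In CD4 cells Egr2 was low throughout. Controls measured 7.77, 5.92 and 7.47 RPKM, Vav1CreTet2KO libraries 0.319, 1.96 and 2.98, and Cd4CreTet2KO libraries 3.66, 2.49 and 5.07. The value of 0.319 rests on 2 reads. Taken as independent, they give a 95% Poisson interval of 0.0386 to 1.15 RPKM, counting error only, below every control. Of low counts in that library only 23.5% were odd numbers, so its reads may not be independent and the interval may be too narrow. All knockout libraries lay below all controls, as for 12.5 percent of all genes in Vav1CreTet2KO and 7.93 percent in Cd4CreTet2KO. The log2 fold change was -1.81 (SE 0.70, edgeR adjusted p = 0.346) for Vav1CreTet2KO and -0.82 (SE 0.68, edgeR adjusted p = 0.9998) for Cd4CreTet2KO.

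Egr3, which acts beside Egr2, passed the test in no comparison, and its groups overlapped in every comparison between genotypes. That does not show that its level was unchanged. CD8 libraries measured 6.47, 7.11 and 5.64 RPKM in controls, 5.22, 7.82 and 5.05 in Vav1CreTet2KO and 3.47, 2.58, 3.86 and 9.42 in Cd4CreTet2KO. CD4 libraries measured 4.40, 4.62 and 3.46, then 4.22, 1.29 and 3.94, then 4.49, 3.82 and 5.42 RPKM in the same order. Its log2 fold change against control lay between -0.47 in CD8 Cd4CreTet2KO and 0.24 in CD4 Cd4CreTet2KO, and its lowest adjusted p in these 4 comparisons was 0.642 (limma). Egr2 and Egr3 were not tested against each other.

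When the means are ranked over the 6 groups, neighbours mostly overlapped. For Nr4a1 the order ran from CD4 Tet2fl/fl through CD4 Cd4CreTet2KO, CD8 Vav1CreTet2KO and CD4 Vav1CreTet2KO to CD8 Tet2fl/fl and CD8 Cd4CreTet2KO, and only CD4 Vav1CreTet2KO and CD8 Tet2fl/fl were separate as neighbours. For Egr2 the CD8 controls stood first and were separate from the CD4 controls, which came next. For Nr4a2 CD8 Vav1CreTet2KO was first and CD4 Tet2fl/fl last, for Nr4a3 the same 2 groups stood first and last, and no neighbours were separate. For Egr1 CD4 Tet2fl/fl was first and CD4 Vav1CreTet2KO last, and for Egr3 CD8 Tet2fl/fl first and CD4 Vav1CreTet2KO last, again with every neighbour overlapping.

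Whether a knockout acted differently in CD8 and CD4 cells was asked with the interaction term over all 19 libraries, as the effect in CD8 minus the effect in CD4 on log2(RPKM + 1). No member passed, and the share of all genes called was 0 percent for Vav1CreTet2KO (0 of 11121 by limma, 1024 genes at an unadjusted p under 0.05, 4 by edgeR on counts and recovered reads) and 0.0629 percent for Cd4CreTet2KO (7 genes). For Vav1CreTet2KO the term was 1.34 (SE 0.58, limma adjusted p = 0.504) for Nr4a1 and 1.30 (SE 0.46, limma adjusted p = 0.414) for Egr1. For Cd4CreTet2KO it was -2.73 (SE 0.98, limma adjusted p = 0.676) for Nr4a2 and -1.53 (SE 0.90, limma adjusted p = 0.9999) for Nr4a3. Between the knockouts within CD8 cells, Nr4a1, Nr4a2 and Nr4a3 were higher in Vav1CreTet2KO by 1.05 (SE 0.46), 1.83 (SE 0.74) and 1.99 (SE 0.72) on the log2 scale, with a limma adjusted p of 0.721 for each, and their groups overlapped.

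The 2 families were also set against each other within a library, where the scaling of the library cancels. The ratios were chosen after the values were seen and carry no test. The Nr4a3 to Egr1 ratio spanned 1.35 to 1.67 in CD8 controls, 3.03 to 5.12 in CD8 Vav1CreTet2KO and 0.389 to 2.69 in CD8 Cd4CreTet2KO. In CD4 cells it spanned 0.663 to 1.28 in controls, 2.77 to 6.52 in Vav1CreTet2KO and 1.59 to 3.04 in Cd4CreTet2KO. The Nr4a1 to Egr1 ratio spanned 1.62 to 2.40 in CD8 controls and 4.06 to 4.81 in CD8 Vav1CreTet2KO, and 2.86 to 4.40 in CD4 controls and 6.64 to 7.62 in CD4 Vav1CreTet2KO, so that it was higher in Vav1CreTet2KO in both cell types although Nr4a1 itself stood on opposite sides of the controls. Of the 9 ratios of an NR4A to an EGR gene, 7 were higher in every knockout library than in every control for CD8 Vav1CreTet2KO, for CD4 Vav1CreTet2KO and for CD4 Cd4CreTet2KO, and 1 for CD8 Cd4CreTet2KO. The 9 ratios share 6 genes and are not independent. How often ratios of other gene pairs separate in this way was not counted, so 7 of 9 has no baseline here. A ratio shows unequal differences and not which gene differed.

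**Figure D3:**
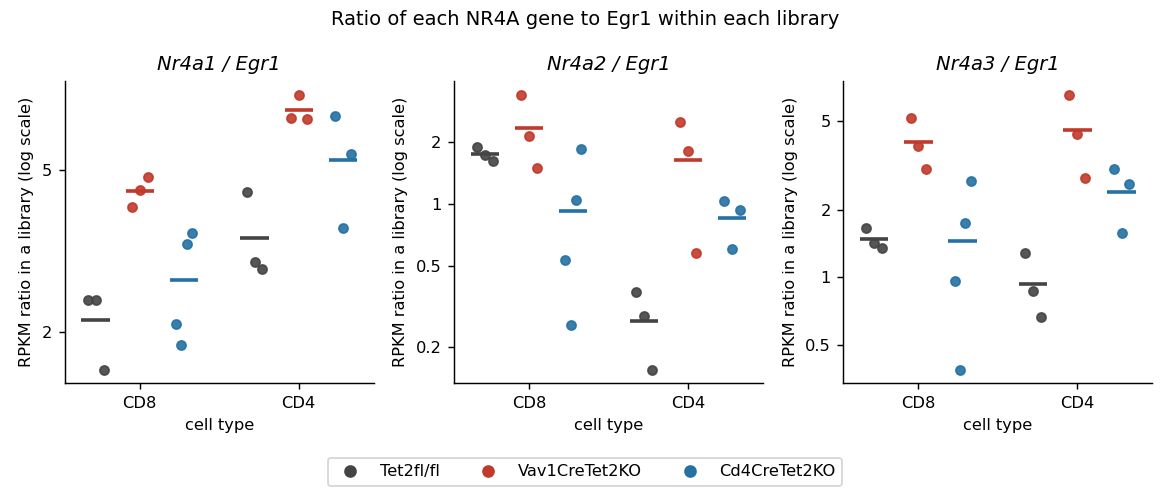
Ratio of the RPKM of Nr4a1, Nr4a2 and Nr4a3 to that of Egr1 within each library (logarithmic axis), 1 point per library with group means as bars. For Nr4a3 the Vav1CreTet2KO libraries span 3.03 to 5.12 in CD8 and 2.77 to 6.52 in CD4 cells, above the controls of their cell type, at most 1.67 and 1.28.

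By the likeness of their levels over libraries (Pearson correlation of log2(RPKM + 1), up to 3 of the closest of 9658 genes in CD8 and 12151 in CD4 cells), each member had neighbours that describe these libraries and carry no test. In CD8 cells Nr4a1 was closest to Zfp36l2 (0.978), which encodes an RNA-binding protein that promotes mRNA decay, Nr4a3 (0.965) and Tob2 (0.964). Nr4a2 was closest to the kinase gene Plk3 (0.981), the prostaglandin receptor gene Ptger4 (0.958) and the kinase gene Sik1 (0.948). Nr4a3 was closest to Fosl2 (0.971), an AP-1 subunit, Nr4a1 and Tob2 (0.962). Egr1 was closest to Tfip11 (0.963), the cytokine receptor gene Il21r (0.958) and the NF-κB gene Rel (0.957), Egr2 to Nsmf (0.957) and the corepressor gene Bcor (0.952), among others, and Egr3 to Phf12 (0.926), Sik1 (0.924) and the clock gene Per1 (0.924). In CD4 cells Nr4a1 was closest to the phosphatase gene Ppp1cb (0.973), Nr4a2 to Nr4a3 (0.955), and Nr4a3 next to Dusp5 (0.944), an ERK phosphatase. Egr1 was closest to Spock2 (0.966) and Klf9 (0.958), Egr2 to Rnf181 (0.974) and Egr3 to the amino acid transporter gene Slc7a1 (0.968). Within the EGR family in CD4 cells the correlation was 0.813 between Egr1 and Egr2, and Egr1 and Nr4a3 ran opposite at -0.601. These genes were picked as the closest over 9 or 10 libraries, which share groups and scaling.

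Upstream of the members, the T cell receptor complex and its kinases gave 1 called gene of 16 tested in CD8 Vav1CreTet2KO, Zap70, which fell by 1.31 on the log2 scale (SE 0.27, limma adjusted p = 0.0336). The median over the list was -0.04 against -0.11 over all genes. In CD8 Cd4CreTet2KO 0 of 16 were called, with Zap70 at -1.16 (SE 0.25, limma adjusted p = 0.0661) and Cd3e, a chain of the receptor complex, at -0.67 (SE 0.25, limma adjusted p = 0.266). Of 14 genes of calcium, calcineurin and NFAT, 0 were called in CD8 Vav1CreTet2KO, where Nfatc1 stood at -1.02 (SE 0.28, limma adjusted p = 0.0897), and 1 in CD8 Cd4CreTet2KO, Nfat5, the NFAT relative that answers osmotic stress, which fell by 1.46 (SE 0.29, limma adjusted p = 0.0496). Of 16 genes of ERK, SRF and the ternary complex factors, which include the direct inducers of the EGR genes, 0 were called in CD8 cells of either knockout. Elk3, a ternary complex factor, stood at -1.19 (SE 0.33, limma adjusted p = 0.0943) in Vav1CreTet2KO and -1.34 (SE 0.31, limma adjusted p = 0.0794) in Cd4CreTet2KO. Of 4 tested partners, Nab2, a corepressor bound by EGR factors and induced by them, stood at -1.20 (SE 0.42, limma adjusted p = 0.175) and -0.44 (SE 0.40, limma adjusted p = 0.723) in the knockouts. In CD4 cells 0 genes of these 4 lists were called in either knockout by edgeR.

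Of 32 other immediate early genes tested in CD8 cells, 0 were called for either knockout, and the median log2 fold change was 0.26 in Vav1CreTet2KO and -0.44 in Cd4CreTet2KO, against -0.11 and -0.15 over all genes. Jun, an AP-1 subunit, stood at -1.29 (SE 0.30, limma adjusted p = 0.0539) in CD8 Vav1CreTet2KO. Of 33 tested in CD4 cells 0 were called, 25 lay below 0 in Vav1CreTet2KO and 17 in Cd4CreTet2KO, with medians of -0.30 and -0.08 against -0.16 and 0.00 over all genes. Fos, the classical partner of Jun, stood at -1.63 (SE 0.40, edgeR adjusted p = 0.153) and Dusp1, a phosphatase that ends kinase signalling, at -1.27 (SE 0.30, edgeR adjusted p = 0.150) in CD4 Vav1CreTet2KO. The 33 genes summed to 2215 to 2872 RPKM in CD4 Vav1CreTet2KO, 3176 to 3514 in CD4 Cd4CreTet2KO and 3414 to 4509 in CD4 controls. In CD8 cells they summed to 2563 to 3191 RPKM in Vav1CreTet2KO, 1311 to 3189.6 in Cd4CreTet2KO and 2455 to 3170.4 in controls. Immediate early genes are known to answer tissue handling as well as antigen. Of 11 heat shock genes, which mark cell stress, 3 fell in CD8 Vav1CreTet2KO and 1 in CD8 Cd4CreTet2KO by limma. They summed to 2048 to 2134 RPKM in CD8 Vav1CreTet2KO and 1579 to 2060 in CD8 Cd4CreTet2KO against 3438 to 4856 in CD8 controls. In CD4 cells the sums were 1375 to 2076 and 1555 to 1948 against 3426 to 5362 RPKM. Their part in the members' levels was not tested.

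Downstream, 17 genes reported as targets of EGR2 and EGR3 were tested in CD8 cells, and 4 fell in Vav1CreTet2KO, with none called higher and a list median of -0.69 against -0.11 over all genes. Tnfrsf9, the costimulatory receptor 4-1BB, fell by 3.53 (SE 0.51, limma adjusted p = 0.00980), and Crtam, an adhesion receptor of activated T cells, by 2.07 (SE 0.29, limma adjusted p = 0.00980). Nrn1, which encodes neuritin and marks anergic cells, fell by 2.66 (SE 0.56, limma adjusted p = 0.0387), and Nrgn by 3.54 (SE 0.76, limma adjusted p = 0.0406). In CD8 Cd4CreTet2KO 1 of 17 was called, Crtam, which fell by 1.57 (SE 0.27, limma adjusted p = 0.0320). In CD4 cells 0 of 18 were called for either knockout. Nrn1 stood at 2.60 (SE 0.81, edgeR adjusted p = 0.246) and Lag3, an inhibitory receptor, at 1.83 (SE 0.69, edgeR adjusted p = 0.338) in CD4 Vav1CreTet2KO, on the other side of 0 from CD8 cells, where Lag3 stood at -2.42 (SE 0.56, limma adjusted p = 0.0539). The effect in CD8 minus that in CD4 cells was -4.37 (SE 0.77, limma adjusted p = 0.0623) for Nrn1 and -3.84 (SE 0.85, limma adjusted p = 0.150) for Lag3, neither past the threshold. For Cd4CreTet2KO this difference passed for Nrn1, at -4.49 (SE 0.75, limma adjusted p = 0.0268). Socs3, an inhibitor of cytokine signalling, stood at -1.68 (SE 0.25, edgeR adjusted p = 0.0744) in CD4 Vav1CreTet2KO against control.

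**Figure D4:**
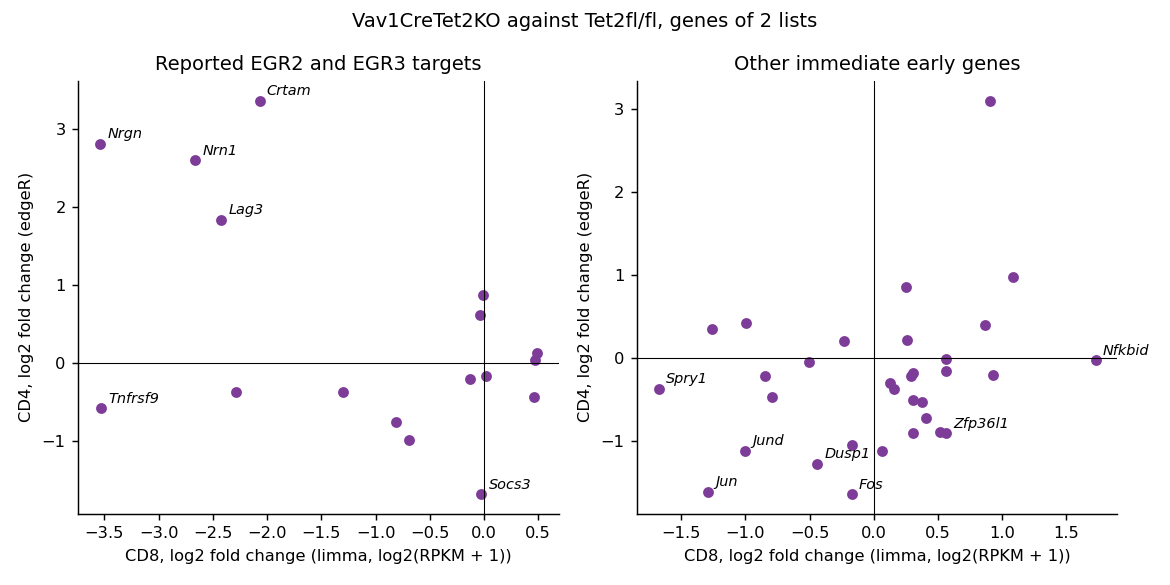
Log2 fold change of Vav1CreTet2KO against Tet2fl/fl in CD8 cells (horizontal, limma on log2(RPKM + 1)) and CD4 cells (vertical, edgeR on counts), 1 point per gene, for the reported EGR2 and EGR3 targets (left) and the other immediate early genes (right). Nrn1 and Lag3 lie at -2.66 and -2.42 in CD8 and at 2.60 and 1.83 in CD4 cells, and the CD4 values passed no test.

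Of 14 exhaustion genes linked to NR4A factors, 3 fell in CD8 Vav1CreTet2KO and 3 in CD8 Cd4CreTet2KO, with list medians of -1.44 and -1.67. The transcription factor genes Tox2 and Tox fell by 2.49 (SE 0.36, limma adjusted p = 0.00980) and 2.34 (SE 0.38, limma adjusted p = 0.0121) in Vav1CreTet2KO, and Ikzf2 by 1.89 (SE 0.41, limma adjusted p = 0.0420). In Cd4CreTet2KO Tox2 and Tox fell by 2.20 (SE 0.33) and 2.21 (SE 0.36), each with a limma adjusted p of 0.0266, and Prdm1, the gene of Blimp-1, by 1.85 (SE 0.37, limma adjusted p = 0.0496). The called genes fell in the CD8 groups in which Nr4a1 stood above control (Vav1CreTet2KO) or on either side of it (Cd4CreTet2KO), and Egr2 below. A link between these levels was not tested. Of the 14 genes, 2 lay above 0 in CD8 Vav1CreTet2KO and 0 in CD8 Cd4CreTet2KO. In CD4 cells 0 of 14 were called, and Pdcd1, the gene of PD-1, stood at -1.33 (SE 0.33, edgeR adjusted p = 0.153) in Vav1CreTet2KO. The CD8 calls depend on single libraries: without CD8 Tet2fl/fl replicate 1 no gene was called in either knockout, and without Tet2fl/fl replicate 3 or Cd4CreTet2KO replicate 2 none in Cd4CreTet2KO. The balance of all calls differed between methods. In CD8 Vav1CreTet2KO it was 46 higher and 103 lower with limma, 61 and 112 with limma on RPKM rescaled with TMM factors, 40 and 51 with edgeR on recovered reads and 496 and 435 with DESeq2 on recovered reads. In CD8 Cd4CreTet2KO it was 8 higher and 50 lower, 22 and 49, 36 and 28, and 402 and 204 in the same order. The count tests also differed from limma in model, scaling and filter.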

How the data were processed

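The authors deposited 1 table per cell type: counts and RPKM in the CD4 table and RPKM alone in the CD8 table, per the file headers, together with other columns of the authors' comparisons (log2 fold change, false discovery rate). How reads were aligned and counted is not stated in the labels or headers. Libraries were made with a stranded total RNA kit (Pico input), per the labels' protocols. Of the per-sample columns 28 were read and 18 were not used. The members and gene lists were chosen with earlier results of these data known. CD8 RPKM times a length implied by the CD4 table gave whole reads within 0.01 for 100% of 134905 values. Of low counts, 50.6% were odd numbers in CD8 Vav1CreTet2KO replicate 1, against 13.1% to 30.7% in the other libraries, and the cause was not tested.

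The planned test was kept for CD4 cells: edgeR 4.0.16 (R 4.3.3), quasi-likelihood test, filterByExpr (minimum count 10, minimum total 15), TMM factors, all 9 libraries. As the CD8 table holds no counts, limma 3.58.1 with a trend was used on log2(RPKM + 1) of genes with at least 1 RPKM in at least 3 of 10 libraries, which understates the change of low genes. The interaction used limma on all 19 libraries, although CD8 and CD4 levels come from separate tables. P-values were adjusted over all genes tested. Of each pathway list, up to 4 called genes of smallest p were named in a comparison with control, or up to 3 of smallest p where fewer were called. Alternatives were another pseudocount (0.1), no filter, DESeq2 1.42.0, RLE or TMM rescaling, count tests on recovered reads, only the compared groups, a replicate block and each library left out. The fits were tested on simulated data. Promoter sequences came from RefSeq (GRCm38.p6). P-values measure the spread between these libraries. One gene among those closest in level to a member is not reported here.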

Additional observations from a re-analysis of the deposited data

Results flagged for a closer look

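Nr4a1 stood on opposite sides of the controls in the 2 cell types of Vav1CreTet2KO mice: every CD8 library lay above every CD8 control and every CD4 library below every CD4 control. The effect in CD8 minus that in CD4 cells was 1.34 on the log2 scale (SE 0.58), with an unadjusted p of 0.0335 and an adjusted p of 0.504 by limma, so the difference did not pass the test. Over 17 alternatives it lay between 1.04 and 1.63, with an adjusted p from 0.252 to 0.730. Among the 4 Cd4CreTet2KO libraries of CD8 cells, no single library passed Dixon's criterion for standing apart in the level of a member. With only 4 libraries the criterion has little power, so it cannot show that none stood apart. The largest gap as a share of the range was 0.814, between the highest library and the next for Egr3, just short of the criterion.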

How the results depend on the processing

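Of 708 log2 fold changes of the members under other settings, 665 kept their direction and side of the threshold, 35 changed sign and 8 passed the threshold. Within a table, libraries of the same replicate number showed little correlation of their deviations from the group means (-0.091 to 0.104). Whether they shared a batch was not tested. With the replicate block 90 genes were called in CD8 Vav1CreTet2KO, 0 in CD8 Cd4CreTet2KO and 3 in CD4 Vav1CreTet2KO. Between CD8 and CD4 libraries of the same library number this correlation spanned -0.061 to 0.332. The main interaction fit took these libraries as independent. In CD8 Vav1CreTet2KO (149 genes called), pseudocount 0.1 gave 87 genes, no filter 20, edgeR on recovered reads 91 and DESeq2 931, of which 1 was a member, as was 1 without the 2 libraries with macrophage transcripts. In CD8 Cd4CreTet2KO (58 genes), only the compared groups gave 286, pseudocount 0.1 gave 13, no filter 8, DESeq2 606 and leaving out the same 2 libraries 0. Between the knockouts in CD8 cells (0 genes), only the compared groups gave 2 and DESeq2 95. In CD4 Vav1CreTet2KO (1 gene), no filter gave 383 genes and 1 member, DESeq2 581 genes and 1 member, and limma 2 genes. In CD4 Cd4CreTet2KO (4 genes), only the compared groups gave 8, no filter 37, DESeq2 47 and limma 2. Between the knockouts in CD4 cells (9 genes), only the compared groups gave 3, no filter 403, DESeq2 516 and limma 4. For the Vav1CreTet2KO interaction (0 genes), pseudocount 0.1 gave 1, no filter 4, the replicate block by shared library number 9, rescaling 7 and edgeR 4. For the Cd4CreTet2KO interaction (7 genes), pseudocount 0.1 and edgeR gave 2 each. The cause of these shifts was not tested.

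With each library left out in turn, the genes called ranged from 0 (without CD8 Tet2fl/fl replicate 1) to 234 (without CD8 Vav1CreTet2KO replicate 2) in CD8 Vav1CreTet2KO, 0 to 39 in CD8 Cd4CreTet2KO and 0 to 1 between the knockouts. In CD4 cells they ranged from 0 to 819 (without CD4 Vav1CreTet2KO replicate 3) in Vav1CreTet2KO, with 0 to 3 members, 0 to 4 in Cd4CreTet2KO, and 2 to 719 with 0 to 1 members between the knockouts. For the interactions they ranged from 0 to 155 and 0 to 5. Signs turned mostly for differences near 0. In CD8 Vav1CreTet2KO the left-out range was -0.27 to 0.70 for Nr4a2, -0.55 to 0.074 for Egr1 and -0.27 to 0.0040 for Egr3. In CD8 Cd4CreTet2KO, Nr4a1 stood at 0.20 with edgeR, 0.19 with DESeq2, 0.51 without the macrophage libraries and -0.65 to 0.12 with 1 library left out, and Nr4a3 at 0.38 without the macrophage libraries. Between the knockouts in CD8 cells, Egr2 stood at 0.061 with the replicate block and -0.56 to 0.061 with 1 library left out, Egr1 at -0.092 without the macrophage libraries and -0.012 to 0.61, and Egr3 at -0.039 without the macrophage libraries. In CD4 cells the left-out range was -0.56 to 0.16 for Egr3 in Vav1CreTet2KO and -0.067 to 0.14 for Nr4a1 in Cd4CreTet2KO, where limma gave -0.078. Between the knockouts in CD4 cells, Nr4a2 stood at 0.012 with only the compared groups, 0.024 with no filter, 0.048 with RLE and 0.051 with DESeq2, and -0.46 to 0.34 with 1 library left out. Nr4a3 there stood at -0.033 with the replicate block, -0.037 with limma and -0.31 to 0.20. For the Vav1CreTet2KO interaction the left-out range was -0.30 to 0.49 for Egr2 and -0.078 to 0.52 for Egr3. For the Cd4CreTet2KO interaction it was -0.57 to 0.20 for Nr4a1, which edgeR put at 0.19, and -0.12 to 0.34 for Egr1.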
